A study of Mus musculus with 6 samples.

Results

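The 10 genes described here are textbook targets of HIF, the transcription factor that accumulates when oxygen falls, and act downstream of it on mitochondria, on the growth kinase mTORC1, on lipid droplets, on gene repression, on collagen and on pH. They are Bnip3, Ddit4, Hilpda, Plin2, Sap30, P4ha1, P4ha2, Plod2, Ndrg1 and Car9, taken by name from the array annotation as 10 of 12394 genes named on the array. They were measured by 16 probe sets, all of which passed the filter on dim signal, and each gene is given by its brightest probe set unless stated.

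The arrays held B16 cells, a mouse melanoma line grown in culture, in 6 groups with 1 array each. Cyclic hypoxia, given to a pair of groups, was 3 periods of 1 h below 1% oxygen with 30 min of reoxygenation between them. One of these was collected after a further 1 h of reoxygenation and the other at the end of the last hypoxic period. The chronic hypoxia groups had 3 h below 1% oxygen and were collected after 1 h of reoxygenation or at the end of hypoxia. The normoxia groups were collected after 3 h plus 1 h or after 3 h, and nothing in the labels matches them to the longer cyclic regime. All cells had been moved to serum-free medium 2 h before the exposure, so serum withdrawal before it is common to every group. The time since that move was 1 h longer at the later collections, and longer in the cyclic regime. The line is the only material, and RNA from these cultures cannot tell a change in RNA per cell from a change in which cells survive.

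Below, "later" means the collection 1 h after the exposure and "at the end" means the collection at its end. Signals are the authors' linear intensity units, and differences are log2 signal of 1 array minus that of another. With 1 array a group, single-array differences have no error of their own. The spread between the normoxia arrays gives a scale: the SD of their log2 difference over 7746 genes was 0.39, and the 10 HIF targets differed between them by -0.15 to 0.25. None of the 10 was 2-fold apart in the normoxia pair, where 0.865% of all genes were higher later and 1.87% lower. Melanocyte markers were bright in all arrays, with summed signals of 19709 to 25559 over 9 genes. None of 9 fibroblast markers passed the filter on dim signal, and their summed signal was 23.2 to 44.7. For leukocyte markers 4 of 8 passed (sum 77.6 to 111; Cd68 reached 44.5, and Ptprc stayed at or under 2.9), for endothelium 1 of 7 (25.9 to 48.7) and for keratinocytes 1 of 6 (18.0 to 25.2). The array of cyclic hypoxia with reoxygenation stood apart, with a median signal of 15.9 against 17.4 to 19.3 in the other arrays and a mean correlation with them of 0.940 across probe sets, against 0.962 to 0.966. Its part in the later cyclic values below was not tested.

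HIF is made of an oxygen-labile alpha subunit and a stable partner. In oxygenated cells prolyl hydroxylases mark the alpha subunit for destruction. In hypoxia the pair binds a short core, the hypoxia response element, written ACGTG or GCGTG, near its target genes. Windows of 300 bases around the start (250 before it and 50 after it) were searched in the RefSeq promoter sequences of build GRCm38.p6 for both 5-base motifs on both strands. For 8 of the 10 genes a window was in the table; Ndrg1 and Plod2 had none. All 8 held ACGTG in at least 1 window, and 7 of 8 held GCGTG, Car9 being the one without. Among 32851 windows of all genes, 19.6% held ACGTG, 32.4% held GCGTG and 43.8% held either. These are shares of single windows, while a gene was counted if any of its windows held the motif, and Hilpda has 2. A match describes the letters and says nothing on binding. The windows of 6 genes are shown from 250 bases before the start to 20 after it, 5′ to 3′ on the strand of the gene, with both motifs in capitals (CACGT and CACGC are the motifs read on the opposite strand). Bnip3, Hilpda and Sap30 are shown because they rose in chronic hypoxia, P4ha2 because it had the second largest difference of the 10 at the end of it, and Plin2 and Car9 because they did not follow the others. The positions are chr7:138909487-138909756 on the minus strand for Bnip3, chr6:29272376-29272645 on the plus strand for Hilpda, chr8:57487841-57488110 on the minus strand for Sap30, chr11:54100674-54100943 on the plus strand for P4ha2, chr4:86670040-86670309 on the minus strand for Plin2 and chr4:43506776-43507045 on the plus strand for Car9.
Bnip3: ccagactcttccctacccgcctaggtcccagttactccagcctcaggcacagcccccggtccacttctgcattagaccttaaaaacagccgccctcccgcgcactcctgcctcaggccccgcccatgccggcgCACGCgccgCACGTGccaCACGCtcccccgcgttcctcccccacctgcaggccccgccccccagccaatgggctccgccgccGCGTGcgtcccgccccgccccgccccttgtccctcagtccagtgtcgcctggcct
Hilpda: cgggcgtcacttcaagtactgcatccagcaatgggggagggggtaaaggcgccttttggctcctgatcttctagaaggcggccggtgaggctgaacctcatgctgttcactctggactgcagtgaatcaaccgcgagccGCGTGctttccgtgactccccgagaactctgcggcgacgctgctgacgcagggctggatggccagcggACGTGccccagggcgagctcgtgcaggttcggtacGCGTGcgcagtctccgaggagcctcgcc
Sap30: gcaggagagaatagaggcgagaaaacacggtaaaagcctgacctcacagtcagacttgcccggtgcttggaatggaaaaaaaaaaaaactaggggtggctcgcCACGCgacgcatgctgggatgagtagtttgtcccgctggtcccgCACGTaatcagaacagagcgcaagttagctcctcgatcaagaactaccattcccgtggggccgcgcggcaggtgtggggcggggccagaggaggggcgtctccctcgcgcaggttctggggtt
P4ha2: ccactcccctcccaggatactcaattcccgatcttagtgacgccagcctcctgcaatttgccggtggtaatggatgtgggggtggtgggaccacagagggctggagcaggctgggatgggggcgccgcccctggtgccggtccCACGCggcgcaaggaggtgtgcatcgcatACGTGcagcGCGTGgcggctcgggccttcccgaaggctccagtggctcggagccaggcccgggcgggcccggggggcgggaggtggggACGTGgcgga
Plin2: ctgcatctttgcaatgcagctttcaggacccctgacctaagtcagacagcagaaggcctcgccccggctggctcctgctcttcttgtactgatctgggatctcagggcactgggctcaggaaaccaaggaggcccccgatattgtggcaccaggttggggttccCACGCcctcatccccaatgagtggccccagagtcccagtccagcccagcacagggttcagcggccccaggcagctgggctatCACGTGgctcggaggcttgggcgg
Car9: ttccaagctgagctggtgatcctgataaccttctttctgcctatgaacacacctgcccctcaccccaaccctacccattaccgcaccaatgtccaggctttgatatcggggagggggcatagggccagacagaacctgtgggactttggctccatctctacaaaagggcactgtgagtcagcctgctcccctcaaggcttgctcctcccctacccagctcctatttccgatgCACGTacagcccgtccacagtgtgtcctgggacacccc

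In Bnip3 the motifs lie in a cluster, with first bases at -117, -108, -107 and -99, and another at -35. The letters at -108 and -107 are the palindrome CACGTG, which reads ACGTG on both strands. Hilpda has 2 annotated starts; the window shown is that of the second and holds ACGTG at -43 and GCGTG at -111 and -8, while the first holds only GCGTG, at 28 bases into the transcript. P4ha2 has GCGTG at -107 and -69 and ACGTG at -78 and 11. In Plin2 the palindrome CACGTG lies across the start, at -4, and GCGTG lies at -86. Sap30 has GCGTG at -147 and ACGTG at -103. Car9 has 1 match, ACGTG on the opposite strand at -18. Of the windows not shown, Ddit4 (chr10:59951721-59952020) held ACGTG at -187 and GCGTG at -115, and P4ha1 (chr10:59323046-59323345) held GCGTG at -163 and -126 and ACGTG at -16.

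More of the 10 genes were at least 2-fold higher after chronic than after cyclic hypoxia. Later, 2 of 10 were at least 2-fold higher after cyclic hypoxia (Bnip3 and Ndrg1) and 5 of 10 after chronic hypoxia (Bnip3, Ddit4, Hilpda, Sap30 and P4ha2), against 3.56% and 2.98% of 7746 genes in the same arrays. At the end, 1 of 10, Bnip3, was after cyclic hypoxia and 7 of 10 were after chronic hypoxia (the 5 above with P4ha1 and Plod2), against 2.12% and 2.53% of all genes. None of the 10 was 2-fold lower in any of these contrasts. Among all genes, 10.6% were 2-fold lower after cyclic and 1.12% after chronic hypoxia later, and 5.44% and 2.36% at the end. The median difference of the 10 was 0.33 after cyclic and 1.07 after chronic hypoxia later, and 0.70 and 1.27 at the end, while the medians of all genes were between -0.03 and 0.00. Cyclic and chronic hypoxia share a normoxia array at each collection, so their differences are not independent. Genes as bright as the dimmest of the 10 or brighter (5957) were 2-fold higher in 1.53% after cyclic and 1.36% after chronic hypoxia later, and in 1.43% and 1.54% at the end.

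**Figure D1:**
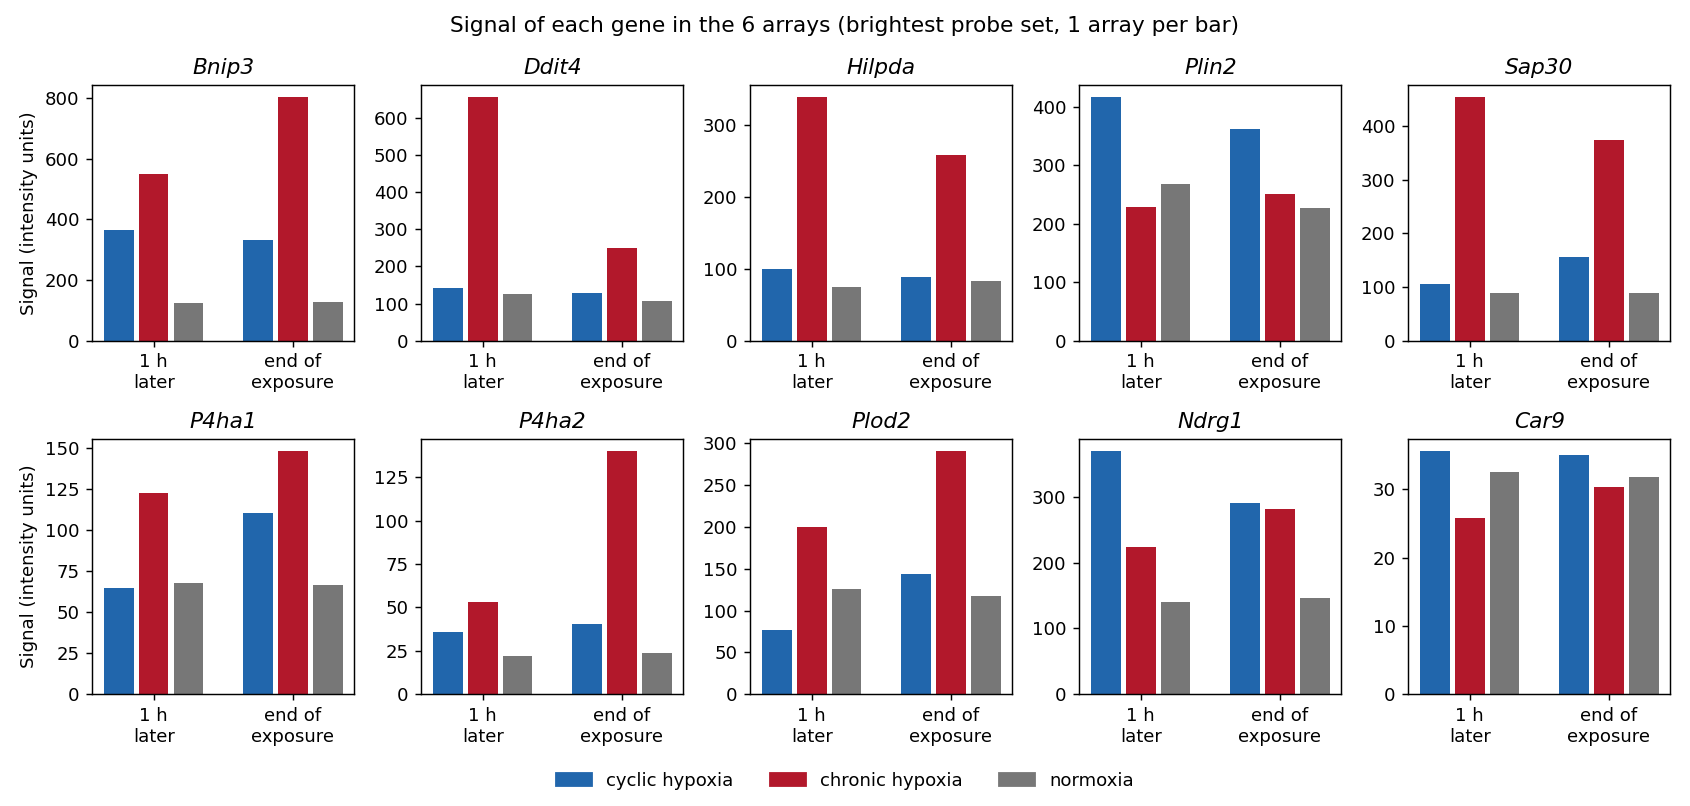
Signal (linear intensity units, 1 bar per array, axes from 0) of each gene at its brightest probe set, 1 h later and at the end of the exposure, for cyclic hypoxia, chronic hypoxia and normoxia. The tallest bar is a chronic hypoxia array for 7 genes and a cyclic hypoxia array for Plin2, Ndrg1 and Car9.

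Bnip3 encodes a receptor on the outer mitochondrial membrane that recruits the autophagy machinery to mitochondria. Later, its signal was 366 after cyclic hypoxia, 549 after chronic hypoxia and 123 in normoxia. At the end it was 332 after cyclic hypoxia, 803 after chronic hypoxia and 127 in normoxia. All 4 hypoxic arrays were above both normoxia arrays, by 2.61-fold to 6.31-fold against the matching one. The differences were 1.57 for cyclic and 2.16 for chronic hypoxia later, and 1.38 and 2.66 at the end. At the end of chronic hypoxia Bnip3 ranked 16 of 7746 genes from the highest, and after cyclic hypoxia it ranked 65. It was the only one of the 10 that was 2-fold higher in all 4 hypoxic arrays.

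The limma additive fit combined the collections, so that they stood in for replicates, and adjusted p over 13556 probe sets by the Benjamini-Hochberg method. In it Bnip3 was 1.48 higher in cyclic hypoxia (SE 0.22, adjusted p = 0.0929), and rose by 2.41 in chronic hypoxia (SE 0.22, adjusted p = 0.0191). The cyclic value passed after quantile normalization (adjusted p = 0.0484) and median centring (0.0182), where more of all probe sets were called too, as given below. It did not pass without the filter (0.460) or the trend (0.319). Leaving out 1 array at a time, the cyclic estimate lay between 1.26 and 1.70. Over both regimes Bnip3 rose by 1.94 (SE 0.19, adjusted p = 0.0488), with 0.0148% of all probe sets called higher. It lost the call with the floor at the 10th percentile (0.0585), without the filter (0.572) and without the trend (0.556). Without the normoxia array at the end the estimate was 1.87, and the call was lost as well. In the fit that let the hypoxia effect differ between collections, Bnip3 was 1.87 higher later (SE 0.30, adjusted p = 0.108) and rose by 2.02 at the end (SE 0.30, adjusted p = 0.0426, with 0.059% of probe sets called higher). The later value passed after quantile normalization (adjusted p = 0.00577) and median centring (9.41e-06), but not without the filter (0.872) or the trend (0.941). The value at the end lost its call with the lower floor (0.0529), without the filter (0.716) and without the trend (0.797). The later effect minus the effect at the end was -0.15 (95% interval -1.07 to 0.76, adjusted p = 1.00). Of the 10 genes Bnip3 alone was called over both regimes and at the end, and none later (limma, adjusted p), against 0.0148%, 0.0738% and 0.00738% of all probe sets in either direction. At an unadjusted p under 0.05 there were 7 of 10 over both regimes, 7 at the end and 6 later, against 8.9%, 6.81% and 5.98% of all probe sets.

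Ddit4 encodes REDD1, which restrains mTORC1 through the TSC complex. Its signal later was 143 after cyclic hypoxia, 656 after chronic hypoxia and 126 in normoxia. The end-of-exposure signal was 128 after cyclic hypoxia, 250.2 after chronic hypoxia and 106 in normoxia. The chronic arrays were far above normoxia, with differences of 2.38 later and 1.23 at the end, and the cyclic arrays only slightly, with 0.18 and 0.27. The higher of the chronic values came after 1 h of renewed oxygen. Within the chronic regime the later array was 1.39 above the array at the end, and within normoxia it was 0.25 above. For chronic hypoxia later Ddit4 ranked 18 of 7746 genes, and at the end 121. In the additive fit chronic hypoxia gave 1.81 (SE 0.31, adjusted p = 0.160) and did not pass. A chronic effect that differs between collections enters this fit as residual spread. Leaving out 1 array at a time, the chronic estimate lay between 1.21 and 2.40. Leaving out a cyclic array cannot change it, because the fit then matches the remaining cyclic array exactly. It passed in limma after median centring (1.80, adjusted p = 0.0197), but not without the filter (0.846) or the trend (0.797).

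Hilpda encodes a small lipid droplet protein that inhibits the triglyceride lipase ATGL, and so slows the breakdown of stored fat. In the later arrays its signal was 99.5 after cyclic hypoxia, 339 after chronic hypoxia and 75.1 in normoxia. Collected at the end, the cells had a signal of 88.7 after cyclic hypoxia, 258 after chronic hypoxia and 83.5 in normoxia. The cyclic arrays were close to normoxia and both chronic arrays far above, with differences of 0.41 for cyclic and 2.17 for chronic hypoxia later, and 0.09 and 1.63 at the end. In the additive fit cyclic hypoxia gave 0.25 (95% interval -0.28 to 0.77, adjusted p = 0.656), and Hilpda rose by 1.90 in chronic hypoxia (SE 0.23, adjusted p = 0.0378).

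Plin2 encodes perilipin 2, a coat protein of lipid droplets. Its cyclic arrays, not its chronic ones, were the highest. Later its signal was 417 after cyclic hypoxia, 229 after chronic hypoxia and 267 in normoxia. The matching values at the end were 363 after cyclic hypoxia, 251 after chronic hypoxia and 228 in normoxia. Both cyclic arrays were above both normoxia arrays, and both chronic arrays lay within the range of the normoxia arrays. The differences were 0.64 for cyclic and -0.22 for chronic hypoxia later, and 0.67 and 0.14 at the end. The fit gave 0.66 for cyclic hypoxia (95% interval 0.20 to 1.11, adjusted p = 0.200) and -0.04 for chronic hypoxia (95% interval -0.50 to 0.41, adjusted p = 1.00), neither of which passed.

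Sap30 encodes a subunit of the Sin3 and histone deacetylase corepressor. Its signal later was 106 after cyclic hypoxia, 454 after chronic hypoxia and 88.7 in normoxia. At the end it was 155 after cyclic hypoxia, 375 after chronic hypoxia and 89.8 in normoxia. The cyclic arrays lay between normoxia and chronic hypoxia, with differences of 0.26 for cyclic and 2.36 for chronic hypoxia later, and 0.79 and 2.06 at the end. Sap30 rose by 2.21 in chronic hypoxia in the additive fit (SE 0.25, adjusted p = 0.0308), while cyclic hypoxia gave 0.53 (SE 0.25, adjusted p = 0.368).

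**Figure D2:**
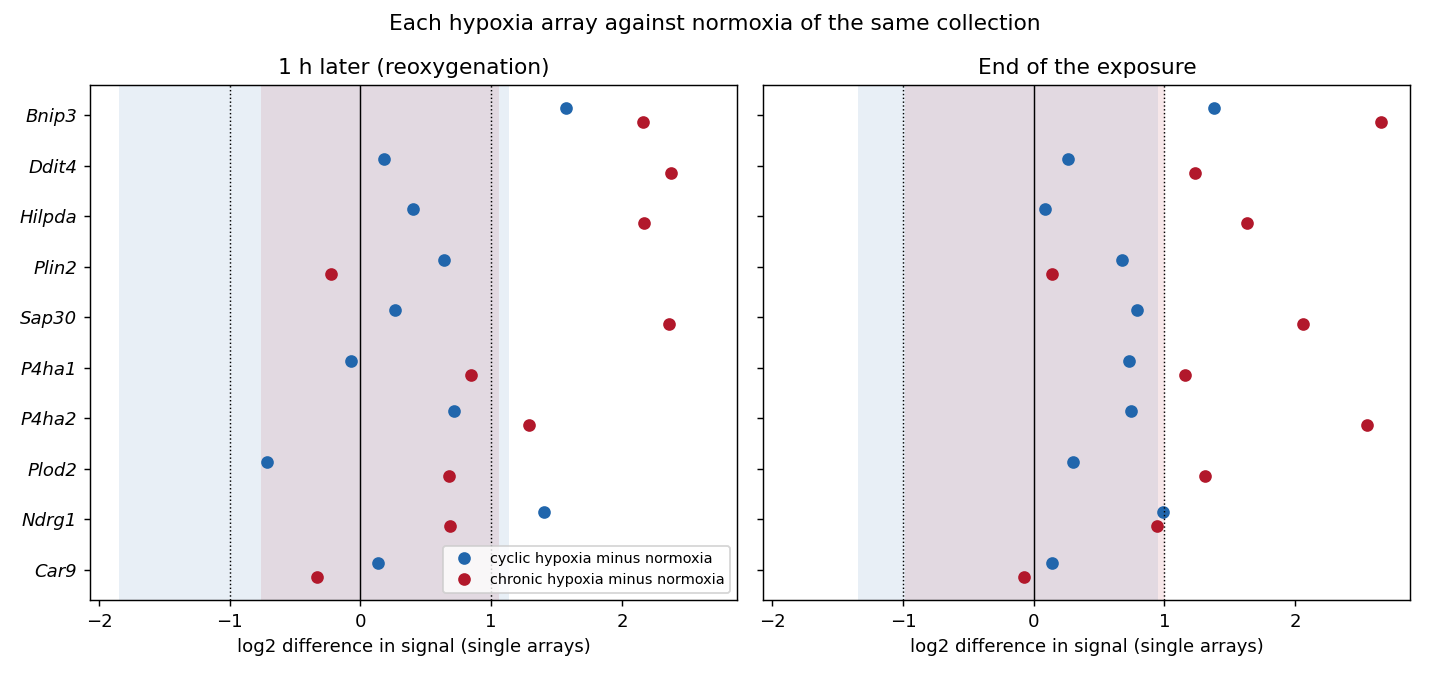
log2 difference in signal of each hypoxic array from the normoxia array of the same collection, 1 h later and at the end. Each point is 1 pair of arrays, shading spans the central 95% of 7746 genes in the same contrast (1 colour per regime, overlapping), and dotted lines mark 2-fold; Bnip3 lies outside the shading in all 4 contrasts.

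P4ha1 and P4ha2 encode alternative catalytic subunits of collagen prolyl 4-hydroxylase, which makes the collagen triple helix stable, and Plod2 encodes a lysyl hydroxylase that prepares collagen for cross-linking. These enzymes use oxygen as a substrate. P4ha2 had a signal later of 35.8 after cyclic hypoxia, 53.2 after chronic hypoxia and 21.8 in normoxia. The end-of-exposure signal was 40.2 after cyclic hypoxia, 140.3 after chronic hypoxia and 24.0 in normoxia. All 4 hypoxic arrays were above both normoxia arrays, and the array at the end of chronic hypoxia was far above the rest. The differences were 0.71 for cyclic and 1.29 for chronic hypoxia later, and 0.75 and 2.55 at the end.

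P4ha1 showed the same order at the end with a smaller spread. In the later arrays its signal was 64.6 after cyclic hypoxia, 122 after chronic hypoxia and 68.1 in normoxia. Collected at the end, the cells had a signal of 110.5 after cyclic hypoxia, 148 after chronic hypoxia and 66.5 in normoxia. The later cyclic array was below both normoxia arrays (-0.07 against the matching one, but 0.11 after quantile normalization or median centring), and the other 3 hypoxic arrays were above both. The dimmer probe set of P4ha1, with a mean signal of 20.1, gave -0.98 for cyclic and 1.28 for chronic hypoxia later, but 0.15 and 0.49 at the end.

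Plod2 had a signal later of 76.3 after cyclic hypoxia, 200.2 after chronic hypoxia and 125 in normoxia. The matching values at the end were 144 after cyclic hypoxia, 291 after chronic hypoxia and 117 in normoxia. The later cyclic array was the lowest of the 6, at -0.72 against normoxia, with -1.06 at the dimmer probe set. The other differences were 0.68 for chronic hypoxia later, and 0.30 for cyclic and 1.31 for chronic hypoxia at the end. In the additive fit chronic hypoxia gave 1.92 for P4ha2 (SE 0.36, adjusted p = 0.193), 1.00 for P4ha1 (SE 0.26, adjusted p = 0.539) and 0.99 for Plod2 (SE 0.27, adjusted p = 0.577), and none passed. The P4ha2 estimate lay between 1.29 and 2.54 over all arrays left out in turn, where leaving out a cyclic array cannot change it.

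Ndrg1 encodes a cytoplasmic protein induced by several stresses, hypoxia among them, and was the gene with the most probe sets, 5. At the brightest its signal later was 369.8 after cyclic hypoxia, 224 after chronic hypoxia and 139.8 in normoxia. At the end it was 290.4 after cyclic hypoxia, 282 after chronic hypoxia and 146 in normoxia. All 4 hypoxic arrays were above both normoxia arrays, and the regimes were close at the end (0.99 and 0.94) but apart later (1.40 for cyclic and 0.68 for chronic hypoxia). Across the 5 probe sets cyclic hypoxia gave 1.40 to 2.78 later and 0.99 to 1.58 at the end. The highest values, 2.78 and 1.58, came from the dimmest probe set, with a mean signal of 13.9. Its signal in later normoxia was 3.78, and its normoxia arrays differed by -1.23. Chronic hypoxia gave 0.17 to 0.97 later and 0.30 to 0.98 at the end, so that at each probe set the cyclic value was the higher at both collections. The fit at the brightest gave 1.20 for cyclic hypoxia (SE 0.23, adjusted p = 0.120) and 0.81 for chronic hypoxia (SE 0.23, adjusted p = 0.577). Ndrg1 passed in limma for cyclic hypoxia after median centring (1.30, adjusted p = 0.0360), where more of all probe sets were called too, as given below. It did not pass without the filter (0.460) or the trend (0.319). Leaving out 1 array at a time, its cyclic estimate lay between 0.92 and 1.47.

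Car9 encodes a membrane carbonic anhydrase that acidifies the outside of hypoxic tumour cells, and is among the most used markers of HIF activity. Its signal later was 35.7 after cyclic hypoxia, 25.9 after chronic hypoxia and 32.5 in normoxia. The end-of-exposure signal was 35.1 after cyclic hypoxia, 30.3 after chronic hypoxia and 31.8 in normoxia. Both cyclic arrays were slightly above and both chronic arrays below the normoxia arrays. The differences were 0.13 for cyclic and -0.33 for chronic hypoxia later, and 0.14 and -0.07 at the end. The fit gave 0.14 for cyclic hypoxia (95% interval -0.50 to 0.78) and -0.20 for chronic hypoxia (95% interval -0.84 to 0.44). The probe set of Car9 had a mean signal of 31.9, and its level over background was not analysed here.

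In all, 6 of the 10 genes (Bnip3, Ddit4, Hilpda, Ndrg1, Sap30 and P4ha2) had all 4 hypoxic arrays above both normoxia arrays, as did 9.11% of the genes. In the additive fit, cyclic hypoxia gave 0 calls among the 10 (limma, smallest adjusted p = 0.0929), with 3 of them at an unadjusted p under 0.05, where 14.9% of all probe sets were. Chronic hypoxia gave 3 calls, Bnip3, Hilpda and Sap30, where 0.0959% of probe sets were called higher, and 8 of 10 had an unadjusted p under 0.05, where 5.35% of probe sets did. These calls rest on few arrays. With 1 array left out, each of the 3 lost its call in some fits, and Ddit4 and P4ha2 gained one in others. Such fits leave 1 array in a regime, so only their estimates are given. The chronic estimates lay between 2.11 and 2.70 for Bnip3, 1.68 and 2.12 for Hilpda, and 1.93 and 2.49 for Sap30. All 3 lost the call without the intensity trend (adjusted p = 0.423 each) and without the filter on dim probe sets (0.485, 0.485 and 0.614 for Bnip3, Hilpda and Sap30).

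**Figure D3:**
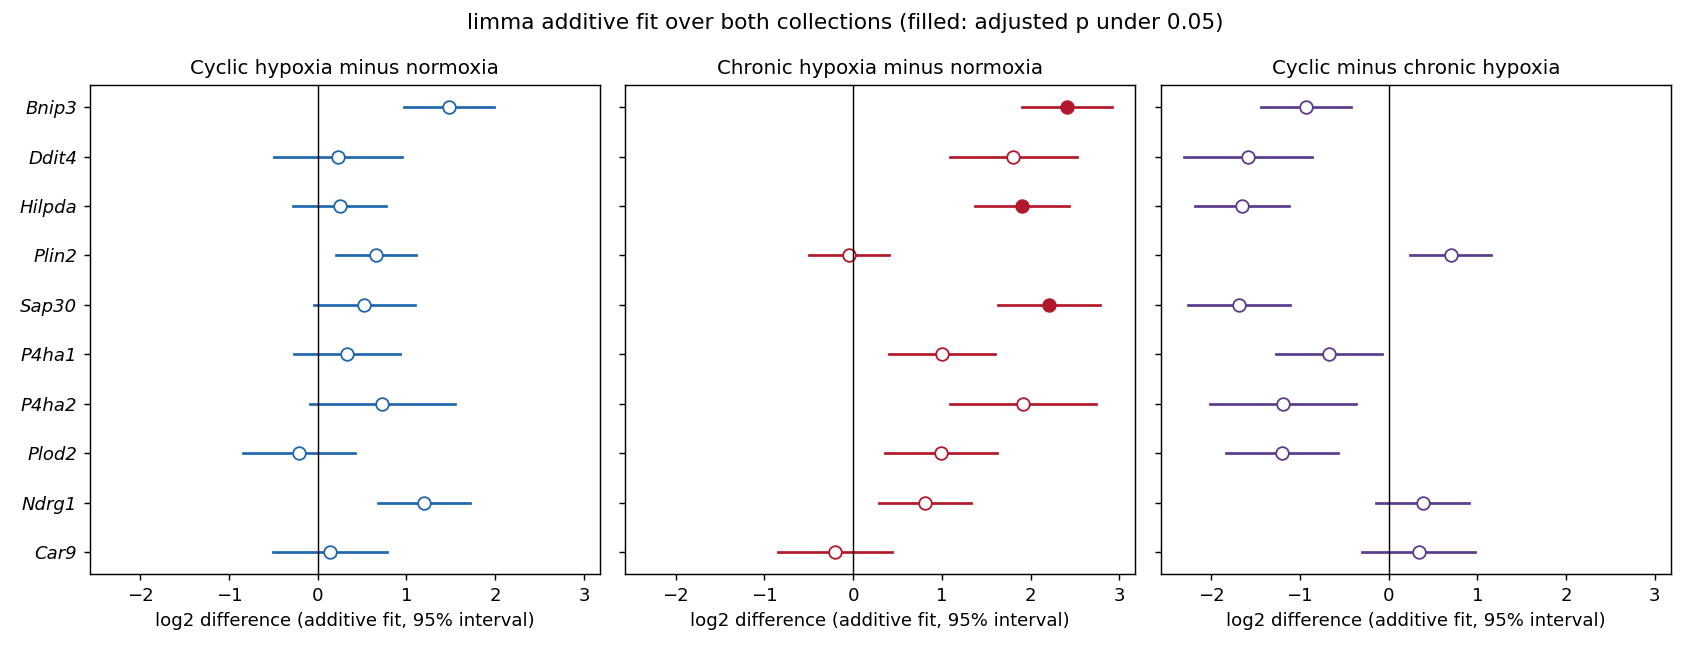
Estimates of the limma additive fit over both collections for each gene (log2 difference with its 95% interval, not adjusted for the number of probe sets), for cyclic hypoxia minus normoxia, chronic hypoxia minus normoxia, and cyclic minus chronic hypoxia. Filled points passed an adjusted p of 0.05 (Bnip3, Hilpda and Sap30 in chronic hypoxia), and open points did not.

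Set directly against each other, cyclic hypoxia was below chronic hypoxia at both collections for 7 genes (Bnip3, Ddit4, Hilpda, Sap30, P4ha1, P4ha2 and Plod2) and above it at both for 3 (Plin2, Ndrg1 and Car9). At least 2-fold lower in cyclic hypoxia were 4 of 10 later (Ddit4, Hilpda, Sap30 and Plod2) and 5 of 10 at the end (Bnip3, Hilpda, Sap30, P4ha2 and Plod2). Among all genes 12.6% were that much lower later and 3.76% at the end. The gap was widest later for Ddit4 (-2.20), Sap30 (-2.09) and Hilpda (-1.77), and at the end for P4ha2 (-1.80) and Hilpda (-1.54). None was 2-fold higher, where 2.5% of all genes were later and 1.23% at the end. Plin2 was 0.87 higher later and 0.53 at the end.

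The additive fit of cyclic minus chronic hypoxia made 0 calls among the 10 or over all probe sets in limma. Of the 10 genes 8 had an unadjusted p under 0.05, where 14.5% of all probe sets did. The estimates were -1.68 for Sap30 (95% interval -2.26 to -1.11) and -1.65 for Hilpda (-2.18 to -1.13), both with an adjusted p of 0.127. They were -1.58 for Ddit4 (-2.30 to -0.86, adjusted p = 0.189) and -0.93 for Bnip3 (-1.44 to -0.43, adjusted p = 0.204). On the other side, Plin2 gave 0.70 (0.25 to 1.15, adjusted p = 0.224) and Ndrg1 0.38 (-0.14 to 0.90, adjusted p = 0.475). Leaving out either normoxia array cannot change these estimates, because the fit then matches the remaining normoxia array exactly. Without the cyclic array at the end they were -1.91 for Ddit4, -1.63 for Hilpda and -2.02 for Sap30. In that last fit P4ha1 gave -0.999 and Plod2 -1.55, against -0.67 and -1.20 with all arrays. Each of these fits left 1 array in a regime, so only their estimates are given here.

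Over the last hour Ddit4 and P4ha2 differed most, in opposite directions. Later minus end within the chronic regime, Ddit4 was 1.39 higher, Hilpda 0.39 and Sap30 0.28 higher. P4ha2 gave -1.40, Bnip3 -0.55, Plod2 -0.54, Ndrg1 -0.33, P4ha1 -0.28, Car9 -0.23 and Plin2 -0.13. Ddit4 was thus the only one of the 10 at least 2-fold higher (2.22% of all genes) and P4ha2 the only one at least 2-fold lower (1.45% of all genes). Within the cyclic regime the extremes were 0.35 for Ndrg1 and, below 0, -0.55 for Sap30, -0.77 for P4ha1 and -0.91 for Plod2, and none of the 10 reached 2-fold, where 2.9% of all genes were higher and 7.47% lower. Within normoxia the 10 lay between -0.15 and 0.25. These last-hour values are from the brightest probe sets, and others differed. The dimmer one of Plod2 gave 0.095 in the chronic and -1.28 in the cyclic regime, and that of P4ha1 gave -0.04 and -1.96. Over its 5 probe sets Ndrg1 gave -1.19 to -0.33 in the chronic and -0.06 to 0.40 in the cyclic regime. The test of the later against the end hypoxia effect, which averages the regimes, called none of the 10 in limma (smallest unadjusted p = 0.0879, for Plod2, at -0.83), while 4.02% of all probe sets had an unadjusted p under 0.05 and 0.0148% were called.

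**Figure D4:**
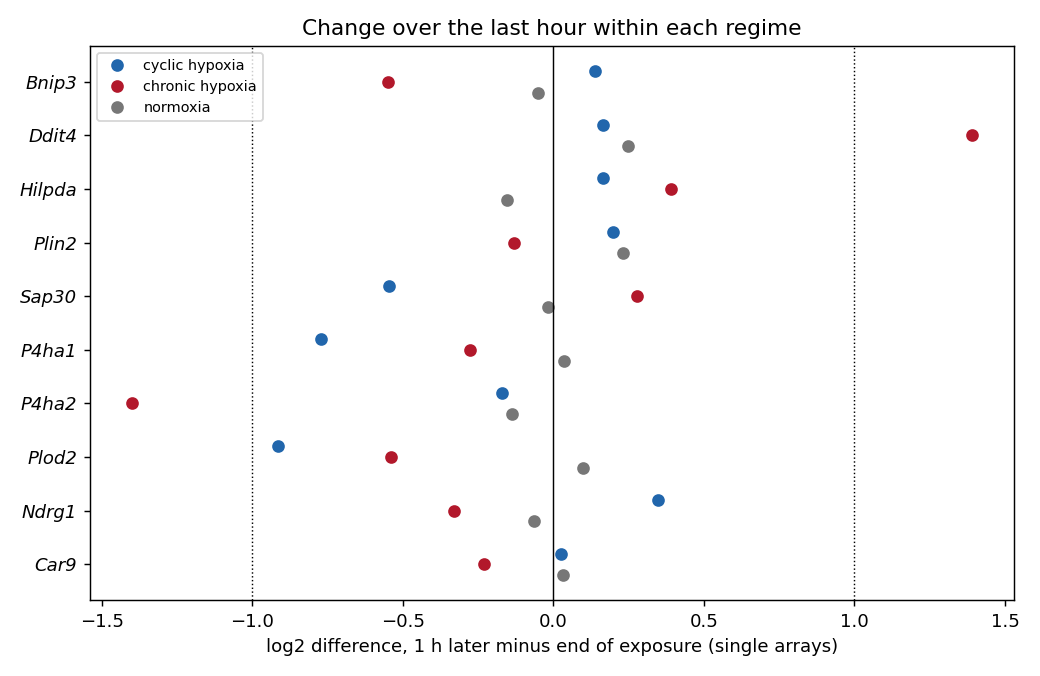
log2 difference of the array collected 1 h later minus the array at the end of the exposure, within cyclic hypoxia, chronic hypoxia and normoxia, 1 point per pair of arrays, with dotted lines at 2-fold. In the chronic regime Ddit4 (1.39) and P4ha2 (-1.40) lie beyond 2-fold on opposite sides, while all normoxia points lie between -0.15 and 0.25.

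Relatives of the 10, by family or by gene name only, were taken as a list of other BNIP, perilipin, NDRG, carbonic anhydrase and PLOD genes and the like. Of 28 listed relatives 25 were on the array and 14 passed the filter. None of the relatives was 2-fold higher in any hypoxic array against its normoxia array. The medians were 0.16 for cyclic and -0.01 for chronic hypoxia later, and 0.25 and 0.11 at the end. The highest by their mean over the 4 contrasts were Bnip1 (0.28 and 0.39 later, 0.54 and 0.92 at the end, for cyclic and chronic hypoxia), Higd1a (mean 0.35) and Car14 (mean 0.32). The lowest were Ddit4l, the paralog of Ddit4, with -0.65 and -1.35 later and -0.51 and -0.84 at the end, and the dim Car11 (mean -0.57, -1.39 at the end of cyclic hypoxia).

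Genes that share the processes of the 10 were taken from 7 lists, whose medians in the hypoxic arrays lay between -0.08 and 0.25. The lists, the relatives included, held 136 genes that passed the filter. Of these, 3 were 2-fold higher and 9 lower after cyclic hypoxia later, 6 and 2 after chronic hypoxia later, 1 and 5 at the end of cyclic and 4 and 2 at the end of chronic hypoxia. As shares these are 2.21%, 4.41%, 0.735% and 2.94% higher, against 3.56%, 2.98%, 2.12% and 2.53% of all genes. The shares lower are 6.62%, 1.47%, 3.68% and 1.47%, against 10.6%, 1.12%, 5.44% and 2.36% of all genes. No gene of any list was called in a fit (limma, adjusted p).

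Mitophagy and autophagy genes (32 measured) had 0 members 2-fold higher in any hypoxic array, and medians of 0.21 for cyclic and 0.02 for chronic hypoxia later, and 0.04 and 0.05 at the end. The highest mean was that of Sqstm1, an autophagy receptor (mean 0.57), followed by Atg16l1 (0.52) and Atg4b (0.49). The lowest were Ulk2, an autophagy kinase (-1.47 later in cyclic hypoxia), and Dnm1l, the mitochondrial fission GTPase, with -1.90 later and -1.05 at the end of cyclic hypoxia against 0.24 and -0.34 in chronic hypoxia. Other probe sets of Dnm1l gave means up to -0.14, where the brightest gave -0.76. Fundc1, another mitophagy receptor, was the remaining one 2-fold lower, at -1.48 in cyclic hypoxia later, and is named after its value was seen.

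Among mTORC1 genes (26 measured) medians were 0.17 and -0.03 later, and -0.06 and 0.03 at the end, for cyclic and chronic hypoxia. Sesn2, a stress-induced inhibitor of mTORC1, gave 1.57 and 1.28 later but -0.09 and 0.61 at the end, and its normoxia arrays differed by -1.11. The mean over the 4 contrasts was 0.84 at this probe set of Sesn2 and -0.34 at its other one. Eif4ebp1, the translation repressor that mTORC1 phosphorylates, gave 0.96 and 0.39 later and 0.68 and 0.75 at the end, and Rragc had a mean of 0.23. The lowest were Sesn1 (mean -0.53) and Txnip, a glucose-regulated arrestin listed here as a regulator. Txnip had a signal later of 66.1 after cyclic hypoxia, 27.2 after chronic hypoxia and 186 in normoxia. The differences were -1.49 and -2.77 later but -0.33 and 0.16 at the end. The other genes beyond 2-fold are named after their values were seen: Deptor at 1.17 (means of -0.43 to 0.23 over its 3 probe sets) and Mlst8 at -1.25 at the end of chronic hypoxia, and Sesn3 at -1.03 in cyclic hypoxia later.

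Lipid droplet and fatty acid genes (24 measured) had medians of 0.14 and 0.05 later, and -0.03 and -0.07 at the end, for cyclic and chronic hypoxia. Mgll, the monoacylglycerol lipase, was alone in being 2-fold higher, and like Plin2 it was highest in the cyclic arrays. Its 3 probe sets had means over the 4 contrasts from 0.41 to 0.86, the brightest giving the highest. In the later arrays its signal was 100.1 after cyclic hypoxia, 49.1 after chronic hypoxia and 40.8 in normoxia. Collected at the end, the cells had a signal of 91.7 after cyclic hypoxia, 32.6 after chronic hypoxia and 28.6 in normoxia. Vldlr, a lipoprotein receptor, and Lpin1, a phosphatidate phosphatase, had means of 0.43 and 0.41. The lowest were Acsl4, an acyl-CoA synthetase (-1.37 and 0.55 later, -1.21 and -0.67 at the end, with means of -0.82 to 0.11 over its 3 probe sets), and Fabp7, a fatty acid binding protein (-1.08 and -0.25 later, -0.99 and -0.23 at the end). G0s2, an inhibitor of ATGL, gave -1.18 at the end of cyclic hypoxia and is named after its value was seen.

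Collagen genes (13 measured) had 0 members beyond 2-fold in any hypoxic array, with medians of 0.19 and 0.21 later, and -0.07 and -0.08 at the end, for cyclic and chronic hypoxia. P3h1, a collagen prolyl 3-hydroxylase, had the highest mean (0.32), with Sparc (0.30) and Colgalt1 (0.24) next, and the basement membrane collagens Col4a1 (-0.28) and Col4a2 (-0.24) had the lowest.

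The corepressor list (18 measured) had medians of -0.06 and -0.01 later, and -0.05 and 0.04 at the end, for cyclic and chronic hypoxia. Members stood beyond 2-fold in both directions. Mxi1, a MYC antagonist that recruits Sin3, was like Sap30 highest in the chronic arrays. Over the last chronic hour, however, Mxi1 gave -0.79 and Sap30 0.28. Mxi1 had signals later of 82.6 after cyclic hypoxia, 228 after chronic hypoxia and 85.6 in normoxia. The matching values at the end were 113 after cyclic hypoxia, 394 after chronic hypoxia and 81.6 in normoxia. The fit gave 0.21 for cyclic and 1.84 for chronic hypoxia (adjusted p = 0.747 and 0.0630). Ogt, the O-GlcNAc transferase, gave -1.32 and 1.56 later, and 0.49 and 1.87 at the end, and its 5 probe sets had means from -0.63 to 0.83. Brms1 had a mean of 0.52 at one probe set and -0.40 at its other one. Mxd3, another MYC antagonist, gave -0.75 and -0.89 later and -0.58 and -1.62 at the end. Its 3 probe sets had means from -0.96 to -0.36. Hdac2, a histone deacetylase, gave -1.24 and -0.30 later and -0.75 and -0.42 at the end. Arid4b, named after its value was seen, was 1.14 in chronic hypoxia later.

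Among 9 measured genes of pH and bicarbonate transport the medians were 0.14 and -0.08 later, and 0.03 and 0.20 at the end. Slc16a3, the lactate exporter MCT4, stood out where Car9 did not. Its signal later was 15.9 after cyclic hypoxia, 36.7 after chronic hypoxia and 9.40 in normoxia. At the end it was 11.7 after cyclic hypoxia, 49.4 after chronic hypoxia and 11.4 in normoxia. The fit gave 2.04 for chronic hypoxia (SE 0.39, adjusted p = 0.220) and did not pass. Slc4a3, an anion exchanger with a mean signal of 8.97 units, was beyond 2-fold in both directions, with 1.39 and 1.01 later and -1.64 and 0.37 at the end for cyclic and chronic hypoxia. The others named had means of 0.14 (Slc26a6), -0.21 (Atp6v1a) and -0.23 (Slc4a8).

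**Figure D5:**
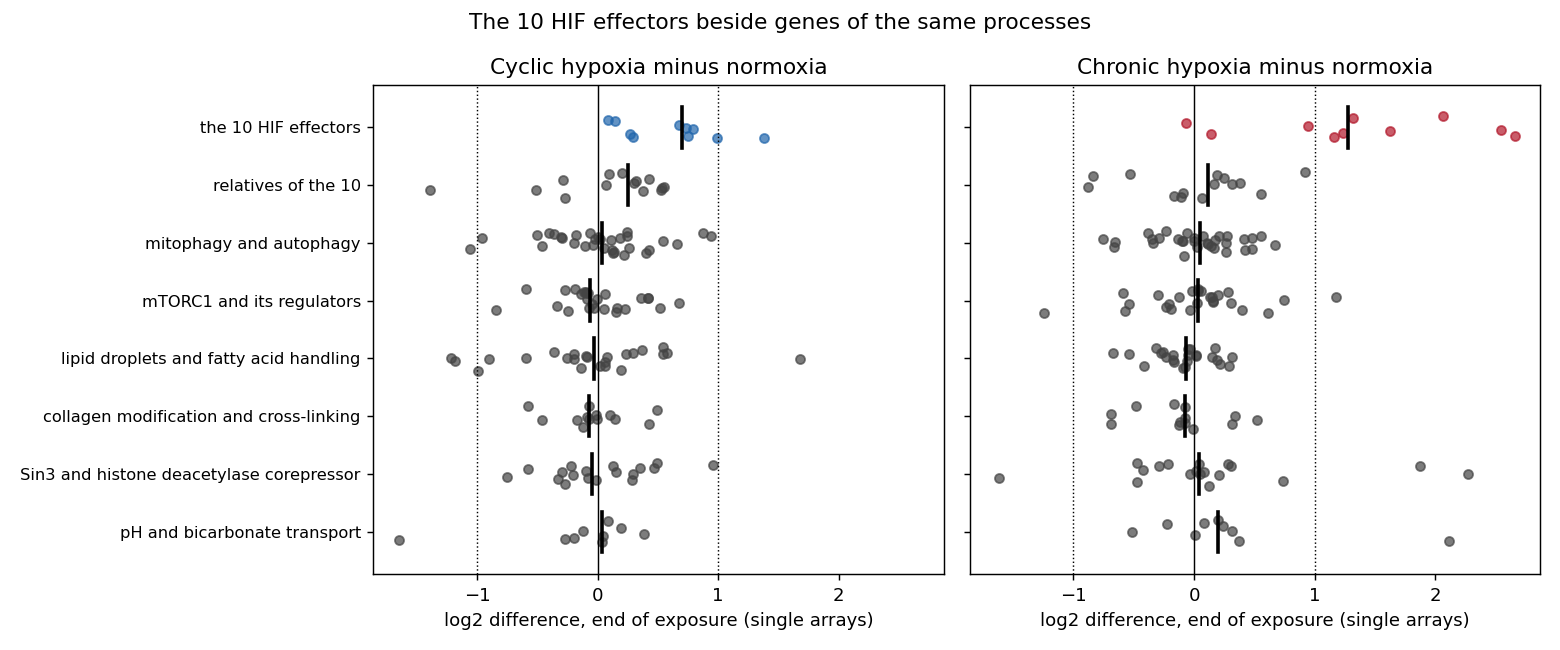
log2 difference from normoxia at the end of the exposure for the 10 HIF targets and for the measured genes of each list, in cyclic and in chronic hypoxia; each point is 1 gene, black bars are medians and dotted lines mark 2-fold. The bar of the 10 is at 0.70 in cyclic and 1.27 in chronic hypoxia, and the bars of the 7 lists lie between -0.08 and 0.25.

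Genes with a pattern like the mean of the 10, or like Bnip3, were sought among 287 other genes. Their signal averaged 100 units or more, and their log2 signal had an SD of 0.5 or more over the 6 arrays. The closest to the mean profile of the 10 were Slc2a1 (r = 0.99), Jmjd6 (0.99), Hk2 (0.98), Egln1 (0.98) and Pvr (0.97). The closest to Bnip3 alone were Hk2 (0.99), Jmjd6 (0.98), Slc2a1 (0.98), Pfkl (0.98) and Pvr (0.95). These Pearson correlations are descriptions over 6 arrays that share their design, chosen as the highest of 287. The mean does not describe all 10 alike. With Hilpda, for example, r was 0.97 for Sap30 but -0.44 for Plin2 and -0.82 for Car9.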

How the data were processed

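Total RNA of B16 cells was hybridised to 6 Affymetrix arrays as biotin-labelled cRNA, 1 array per group. The deposited values are linear signal intensity for 22690 probe sets. Per the submitters' processing notes they come from GCOS; its version and algorithm are not given in the sources used here. The trimmed mean of each array (2% off each end) was 100.1, so the authors' scaling was kept. Arrays carry no counts, so the number of arrays limits the precision, and no detection calls were used. From these values log2 signal was computed, with values under the 20th percentile (2.10 units) set to it. Probe sets with a mean under the 40th percentile (8.33 units) and 64 controls were left out, leaving 13556 probe sets and 7746 genes. The 10 genes and the lists were chosen with earlier results of these data known. Names come from the platform annotation, updated by Entrez identifier (20364 of 20393 single-gene probe sets).

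Tests used limma 3.58.1 in R 4.3.3 (lmFit, eBayes with intensity trend, two-sided, Benjamini-Hochberg over 13556 probe sets, threshold 0.05). Regime and collection were the terms of the additive fit, which left 2 residual degrees of freedom; the interaction fit added hypoxia by collection and left 1. The script was tested on simulated data. Nothing in the labels says that the groups came from separate cultures. Alternatives were quantile normalization, median centring, a floor at the 10th percentile, log2 of the value plus 16, no filter, no trend, the mean over a gene's probe sets, and each array left out. Of each list the text names genes called in a fit and the 3 highest and 2 lowest by the mean of the 4 differences; others are marked. Protein sequences were not used here.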

Additional observations from a re-analysis of the deposited data

Results flagged for a closer look

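Car9 was below normoxia in both chronic hypoxia arrays and above it in both cyclic ones. The differences were 0.13 (later) and 0.14 (at the end) for cyclic hypoxia, and -0.33 (later) and -0.071 (at the end) for chronic hypoxia. All 4 are smaller than the SD of 0.39 between the normoxia arrays over all genes. The limma fit of cyclic minus chronic hypoxia gave 0.34 (SE 0.28, adjusted p = 0.615) and did not pass. No other of the 10 genes was on one side of normoxia in both arrays of one regime and on the other side in both of the other. No group held enough arrays for a search for outlying ones.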

How the results depend on the processing

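The 2-fold counts of the 10 genes stayed within 1.5 times except in a few cases. After cyclic hypoxia at the end 2 genes were higher with median centring and 2 with the mean over probe sets, in place of 1. In cyclic minus chronic hypoxia later 1 was higher with either of these, in place of 0, and in the last hour of the cyclic regime 2 were lower with the mean over probe sets, in place of 0. For the lists at the end of chronic hypoxia, no filter gave 11 higher and 13 lower in place of 4 and 2, and log2 of the value plus 16 and the mean over probe sets gave 1 lower each. At the end of cyclic hypoxia 1 higher became 2 (quantile normalization), 10 (no filter) and 2 (mean over probe sets), and 5 lower became 1 (plus 16) and 18 (no filter). Later, 6 higher in chronic hypoxia became 3 (plus 16) and 15 (no filter), 2 lower became 1 and 4, and 3 higher in cyclic hypoxia became 5 (quantile), 7 (centring) and 18 (no filter).

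In the limma fits, no filter and no trend gave 0 calls of probe sets and of the 10 genes for chronic hypoxia, for mean hypoxia and for hypoxia at either collection. Quantile normalization, median centring and plus 16 gave 21, 31 and 22 probe sets for chronic hypoxia in place of 13, with 1 list gene each in place of 0. For cyclic hypoxia they gave 20, 158 and 1 in place of 0; of the 10 genes quantile normalization called 1 and centring 2, and centring called 3 list genes. For mean hypoxia they gave 24, 35 and 12 in place of 2, with 2 of the 10 genes under quantile normalization and under centring in place of 1; the lower floor gave 1 probe set and 0 of the 10. For cyclic minus chronic hypoxia centring gave 32 probe sets, 2 of the 10 genes and 2 list genes in place of 0. For hypoxia at the end they gave 39, 74 and 16 in place of 10, and the lower floor 4; centring called 3 of the 10 and 1 list gene, and the lower floor 0 of the 10. For hypoxia later they gave 14, 71 and 3 in place of 1; quantile normalization called 1 and centring 4 of the 10, and centring 1 list gene. The difference between collections gave 4, 20 and 1 in place of 2, and 0 without filter or trend. The cause of these shifts was not tested. Of the single-array differences of the 10 genes, the sign turned for P4ha1 in cyclic hypoxia later (0.11 with quantile normalization and with centring) and for P4ha2 in the last cyclic hour (0.0038 with centring, in place of -0.17).

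Leaving out 1 array at a time gave 3 to 70 probe sets, 1 to 5 of the 10 genes and 0 to 4 list genes for chronic hypoxia. It gave 4 to 1268, 0 to 2 and 0 to 12 for cyclic hypoxia, 4 to 518, 0 to 5 and 0 to 7 for mean hypoxia, and 0 to 1333, 0 to 5 and 0 to 8 for cyclic minus chronic hypoxia. The lone array left in a group was assumed to vary like the others. The interaction fit had no residual degrees of freedom without an array and was not run. Estimates near 0 changed sign. Plin2 in chronic hypoxia, left-out arrays included, was between -0.22 and 0.13, and was 0.055 without the later normoxia array and 0.13 without the later chronic array. Ddit4 in cyclic hypoxia was between -0.10 and 0.55, with -0.10 without the cyclic array at the end and -0.04 without the later normoxia array. Plod2 in cyclic hypoxia was between -0.62 and 0.20, with 0.20 without the later normoxia array and 0.14 without the later cyclic array. In mean hypoxia Car9 was 0.027 (quantile), 0.020 (centring), 0.035 without the later normoxia array and 0.032 without the later chronic array, and at the lowest -0.099. Plod2 in mean hypoxia was between -0.020 (without the normoxia array at the end) and 0.81 (without the later normoxia array). Plod2 in hypoxia later was 0.057 (quantile) and 0.069 (centring).

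Scaling moved the split of all genes in both directions. Higher and lower by 2-fold were 276 and 821 genes in cyclic hypoxia later, 427 and 621 with centring. They were 231 and 87 in chronic hypoxia later, 177 and 117 with quantile normalization. In cyclic minus chronic hypoxia later they were 194 and 975, 352 and 804 (quantile) and 361 and 732 (centring). In the normoxia pair they were 67 and 145, 83 and 101 (quantile), and in the last hour of the cyclic regime 225 and 579, 356 and 385 (centring). Centring raised the median of all genes by 0.19, 0.20 and 0.17 in cyclic hypoxia later, cyclic minus chronic later and the last cyclic hour, and quantile normalization by 0.10 in cyclic minus chronic later. No paired analysis was possible because no 2 groups share replicates beyond the single array of each; collection, which the regimes share, was a term of the additive fit. Signal over background was not analysed here, which limits dim probe sets such as that of Car9.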
